A study of Mus musculus with 8 samples.

Results

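Acetylcholine is made and released by cholinergic neurons and acts on muscarinic receptors, which couple to G proteins, and on nicotinic receptors, which are ion channels. The data described here are the amygdala transcript levels of 10 genes of this system, chosen by name: the muscarinic receptor genes *Chrm1*, *Chrm2*, *Chrm3*, *Chrm4* and *Chrm5*, the nicotinic receptor subunit genes *Chrna4*, *Chrna5*, *Chrna7* and *Chrnb2*, and *Ache*, which encodes acetylcholinesterase. All 10 were among the 24982 genes of the deposited expression table. RNA sequencing was performed on the microdissected amygdala of 8 male C57BL/6 mice aged 187 to 189 d, with 1 library per mouse. The plain water group (n = 4) drank water alone and the aspartame group (n = 4) drank water containing 0.03% aspartame. The sample labels give no other agent or allele that separated the groups. Per the methods, the tissue was taken after behavioral testing, part of which used injections of saline and diazepam. Whether the sequenced mice received these injections is not given in the sources used here. The exposure was 18 wk according to the sample labels, whereas the RNA sequencing methods of the study give a shorter period. The comparison addressed whether aspartame in the drinking water was accompanied by a change in transcript levels in the amygdala, a brain region that governs anxiety.

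The basal forebrain sends a dense cholinergic projection to the amygdala. The M1, M3 and M5 receptors, encoded by *Chrm1*, *Chrm3* and *Chrm5*, couple to Gq proteins and raise neuronal excitability, whereas the M2 and M4 receptors, encoded by *Chrm2* and *Chrm4*, couple to Gi/o proteins and restrain transmitter release. In the brain, the α4 and β2 subunits (*Chrna4* and *Chrnb2*) assemble into the high-affinity nicotinic receptor, α5 (*Chrna5*) joins it as an accessory subunit, and α7 (*Chrna7*) forms a receptor of its own. Acetylcholinesterase hydrolyzes acetylcholine in the synaptic cleft and ends its action.

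Levels are on the rlog scale, a log2 scale in which the values of genes with few reads are pulled toward their mean, so differences of low genes are understated. Read counts, and with them the depth of each library, were not part of the table. The methods of the study leave 1 unnamed aspartame sample out after principal component analysis (PCA). In the deposited values, the first component took up 55.8% of the variance, and aspartame 2 lay at −27.6 on it, with the other libraries between −10.3 and 24.0. Aspartame 2 was therefore taken to be that sample, which is an assumption, and differences are given with it and without it. The comparison of 7 libraries (4 plain water, 3 aspartame) and the comparison of 8 libraries share 7 libraries and are not independent. Markers of amygdala neurons were present in every library, with *Rspo2*, *Meis2*, *Foxp2*, *Prkcd*, *Crh*, *Nts* and *Tac2* all above an rlog of 3. Of the medial habenula markers, *Pou4f1* was at 0 in all 8 libraries and *Gpr151* was between 0.14 and 0.22. Markers of choroid plexus (*Ttr*, *Folr1*, *Kl*) were on average 1.73 log2 units above the plain water mean in water 1 and below that mean in the other 7 libraries.

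In the comparison of 7 libraries, neither *Ache* nor any of the receptor genes passed the test at an adjusted *P* under 0.05. Of the 10 genes, 8 had a mean rlog of at least 3 and were tested. By limma with Benjamini-Hochberg adjustment over all 12870 genes tested, 0 of these 8 were called, where 8.81% of all genes tested were called. At an unadjusted *P* under 0.05 there was 1 of 8, *Ache*, against 27.1% of all genes tested. The ranges of the groups overlapped for all 8 genes, whereas 23.0% of all genes tested had groups that did not overlap. The median difference (aspartame minus plain water) of the 8 genes was 0.12 and that of all genes tested was −0.0042. Of the 8 differences, 7 were positive and 1 was negative, and among all genes tested 6319 were positive and 6551 negative. In the comparison of 8 libraries, 0 of the 8 genes and 0% of all 12861 genes tested were called by limma. At an unadjusted *P* under 0.05 there were 0 of the 8 genes and 4.30% of all genes. Groups that did not overlap were found for 0 of the 8 genes and 3.37% of all genes. The median difference of the 8 genes was then 0.048, with 6 positive and 2 negative. That of all genes tested was 0.0033, with 6580 positive and 6281 negative.

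**Figure D1:**
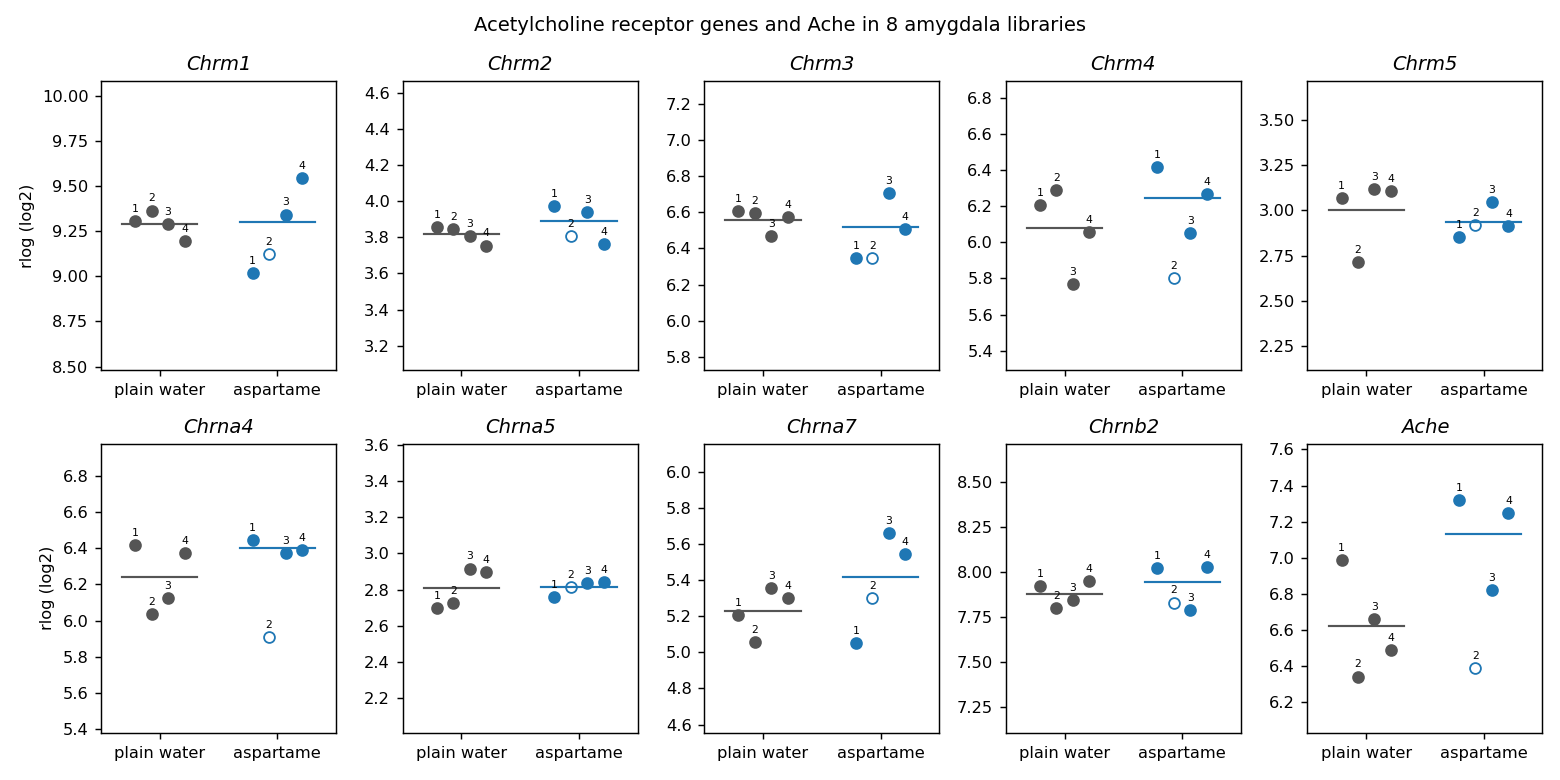
The rlog level (log2) of each of the 10 genes by library, with plain water in grey and aspartame in blue, every panel spanning the same number of log2 units. Numbers are mouse numbers, lines are group means without aspartame 2, and aspartame 2 is the open circle. *Ache* has the widest range, from 6.34 in water 2 to 7.32 in aspartame 1, and in no panel do the filled circles of the groups separate.

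*Ache* (chr5:137287519-137294466, plus strand, GRCm38) had the largest difference of the 8 genes tested. Its rlog was 6.99, 6.34, 6.66 and 6.49 in water 1 to 4 and 7.32, 6.39, 6.82 and 7.25 in aspartame 1 to 4. Aspartame 1 and 4 were the highest 2 libraries, but water 1 was above aspartame 3, and aspartame 2 was below 3 of the plain water libraries. *Ache* averaged 6.62 ± 0.28 (SD, n = 4) over the plain water mice. Over aspartame 1, 3 and 4 it averaged 7.13 ± 0.27 (SD, n = 3). The difference of 0.51 ± 0.16 (SE) was a 1.42-fold higher level (95% interval 1.13 to 1.80, not adjusted), and its adjusted *P* by limma was 0.0625. With all 8 libraries the difference was 0.32 ± 0.20 (SE) with an adjusted *P* of 0.903 by limma. The call depended on single libraries: the adjusted *P* of *Ache* by limma was 0.0256 without water 1 (difference 0.63) and 0.0143 without aspartame 3 (difference 0.66), and it was between 0.136 and 0.188 when any 1 of the other libraries was left out.

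*Ache* also has the most GC-rich transcripts of the 10 genes (60.4% GC), and the libraries differed in the level of GC-rich against GC-poor genes. The gap between the most GC-rich and the most GC-poor genes, as a deviation from the mean over libraries, was 0.38 in aspartame 1, −0.63 in aspartame 2, 0.040 in aspartame 3 and 0.46 in aspartame 4. In plain water it was 0.18 in water 1 and between −0.22 and −0.12 in the other 3 libraries. Aspartame 1, aspartame 4 and water 1, with the highest gaps, were also the 3 libraries with the highest *Ache* level. The part of this gap in the *Ache* difference was not tested. With the trend on GC content and transcript length removed within each library, the *Ache* difference in the comparison of 7 libraries was 0.27 with an adjusted *P* of 0.180 by limma. The length used there was the median over protein-coding transcripts, which for *Ache* is 423.5 bases against a longest coding sequence of 1842 bases. The removed trend may therefore rest on a length that does not represent the *Ache* transcripts.

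Transcription factors bind near transcript starts, and 9 of the 10 genes had a promoter window in the RefSeq table (GRCm38.p6). Windows of *Ache*, *Chrna4* and *Chrm3* are printed, each with the 250 bases before a RefSeq transcript start, 5′ to 3′ on the strand of the gene. A gene can have several starts: in the GENCODE annotation the *Ache* and *Chrna4* windows lie inside the gene span, downstream of its outermost start. The windows were chosen after the values were seen: *Ache* had the smallest *P*, *Chrna4* the next smallest, and *Chrm3* is a receptor gene with neither motif. Capitals mark the GC box GGGCGG on either strand, the core of the site of Sp family factors, and the palindromic E-box CACGTG, the site of several basic helix-loop-helix factors.
Ache, chr5:137288004-137288253, plus strand: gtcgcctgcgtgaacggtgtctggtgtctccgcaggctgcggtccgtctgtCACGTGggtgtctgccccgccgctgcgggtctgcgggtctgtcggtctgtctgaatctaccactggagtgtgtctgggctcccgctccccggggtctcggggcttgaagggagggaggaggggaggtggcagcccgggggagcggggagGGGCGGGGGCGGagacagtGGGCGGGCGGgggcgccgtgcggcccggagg
Chrna4, chr2:181039178-181039427, minus strand: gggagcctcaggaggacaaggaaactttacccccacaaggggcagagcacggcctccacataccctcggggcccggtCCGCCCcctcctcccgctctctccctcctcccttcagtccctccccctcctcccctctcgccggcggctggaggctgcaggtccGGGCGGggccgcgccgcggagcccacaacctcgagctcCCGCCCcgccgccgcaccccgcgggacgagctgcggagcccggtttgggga
Chrm3, chr13:10360804-10361053, minus strand: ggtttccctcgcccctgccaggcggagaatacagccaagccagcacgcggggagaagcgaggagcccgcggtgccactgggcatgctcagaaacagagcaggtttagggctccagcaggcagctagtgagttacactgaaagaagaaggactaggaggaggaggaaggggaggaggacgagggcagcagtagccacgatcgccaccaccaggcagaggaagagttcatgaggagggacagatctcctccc
The *Ache* window held 4 GC boxes, in 2 stretches where neighbouring matches overlap or abut, and 1 E-box, and its GC content was 73.6%. The *Chrna4* window held 3 GC boxes and no E-box, with a GC content of 74.4%. The *Chrm3* window held neither motif at a GC content of 61.2%. Of the 9 genes with a window, 6 had at least 1 GC box in any of their windows. *Chrna5* had 2 windows, of which 1 held GC boxes. The shares that follow are per window and not per gene. Among 32851 mouse windows of this length, 32.7% held a GC box and 6.02% an E-box, and the median GC content was 52.4%. A match of letters is a description and not a known site.

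No muscarinic gene passed the test. *Chrm1* was 9.31, 9.36, 9.29 and 9.20 in water 1 to 4 and 9.02, 9.12, 9.34 and 9.54 in aspartame 1 to 4. Plain water mice lay within a narrow band (SD 0.070, n = 4), and the aspartame mice reached both below it, in aspartame 1 and 2, and above it, in aspartame 4 (SD 0.23, n = 4). The *Chrm1* difference in the comparison of 7 libraries was 0.012, with a 95% interval from −0.23 to 0.25 and an adjusted *P* of 0.956 by limma. That interval corresponds to a fold of 0.854 to 1.19. *Chrm3*, which shares the Gq coupling of *Chrm1*, was 6.60, 6.59, 6.47 and 6.57 in plain water and 6.35, 6.34, 6.71 and 6.51 in aspartame. Aspartame 1 and 2 were the lowest libraries and aspartame 3 the highest, and the difference was −0.040 (95% interval −0.25 to 0.17, adjusted *P* 0.830 by limma). *Chrm5* did not reach the minimum mean level for a test, with values from 2.71 in water 2 to 3.12 in water 3 and from 2.85 to 3.05 in the aspartame mice.

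Of the Gi/o-coupled receptors, *Chrm4* was 6.21, 6.29, 5.77 and 6.06 in plain water and 6.42, 5.80, 6.05 and 6.27 in aspartame. Aspartame 1 was the highest and water 3 the lowest library, with the rest intermixed, and the difference was 0.17 (95% interval −0.12 to 0.45, adjusted *P* 0.442 by limma). *Chrm2* varied least of the genes tested, from 3.75 in water 4 to 3.97 in aspartame 1. Its difference was 0.076 (95% interval −0.092 to 0.24, adjusted *P* 0.564 by limma). With all 8 libraries the muscarinic differences were −0.032 for *Chrm1*, 0.054 for *Chrm2*, −0.083 for *Chrm3* and 0.055 for *Chrm4*, with adjusted *P* values by limma from 0.919 to 0.974. Without the minimum level, the *Chrm5* difference was −0.065 (95% interval −0.29 to 0.16, adjusted *P* 0.739 by limma) in the comparison of 7 libraries and −0.069 (adjusted *P* 0.875) in that of 8.

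No nicotinic subunit gene passed the test either. *Chrna4* was 6.42, 6.04, 6.12 and 6.38 in water 1 to 4 and 6.45, 5.91, 6.37 and 6.39 in aspartame 1 to 4. Without aspartame 2, the aspartame mice were closely grouped (6.40 ± 0.039, SD, n = 3) at the level of water 1 and 4, and aspartame 2 was the lowest library of all. The *Chrna4* difference was 0.16 in the comparison of 7 libraries (95% interval −0.068 to 0.40, adjusted *P* 0.347 by limma) and 0.041 with all 8 (adjusted *P* 0.973 by limma). *Chrnb2*, the partner of *Chrna4* in the α4β2 receptor, was 7.92, 7.80, 7.84 and 7.95 in plain water and 8.02, 7.83, 7.79 and 8.03 in aspartame. All 8 libraries lay within a narrow span, and the difference was 0.068 (95% interval −0.12 to 0.25, adjusted *P* 0.648 by limma). With all 8 libraries the *Chrnb2* difference was 0.039 (adjusted *P* 0.955 by limma). *Chrnb2* overlaps *Adar*, a protein-coding gene, on the opposite strand. Opposite-strand genes of other types overlap *Ache* (*Gm42456*), *Chrm1* (*Gm22820*), *Chrm2* (*9330158H04Rik*) and *Chrm3* (*Gm26861* and *Gm47406*). The library kit kept strand, and whether the counting used it is not given in the sources used here.

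*Chrna7* had the widest range of the nicotinic subunit genes, at 5.21, 5.06, 5.36 and 5.30 in water 1 to 4 and 5.05, 5.30, 5.66 and 5.54 in aspartame 1 to 4. Aspartame 3 and 4 were above every plain water library and aspartame 1 was below every one of them. The difference was 0.19 (95% interval −0.11 to 0.49, adjusted *P* 0.409 by limma), and 0.16 with all 8 libraries (adjusted *P* 0.903). It was 0.37 without aspartame 1 (adjusted *P* 0.0684 by limma) and 0.066 without aspartame 3 (adjusted *P* 0.777). *Chrna5* was low in all mice, between 2.70 and 2.92, below the minimum for a test. Without that minimum its difference was 0.0041 (95% interval −0.16 to 0.17, adjusted *P* 0.980 by limma) in the comparison of 7 libraries and 0.0043 (adjusted *P* 0.993) in that of 8. These intervals leave room for changes that the number of mice cannot show: the upper bounds for *Chrm4*, *Chrna4* and *Chrna7* lie at 0.45, 0.40 and 0.49 log2 units.

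**Figure D2:**
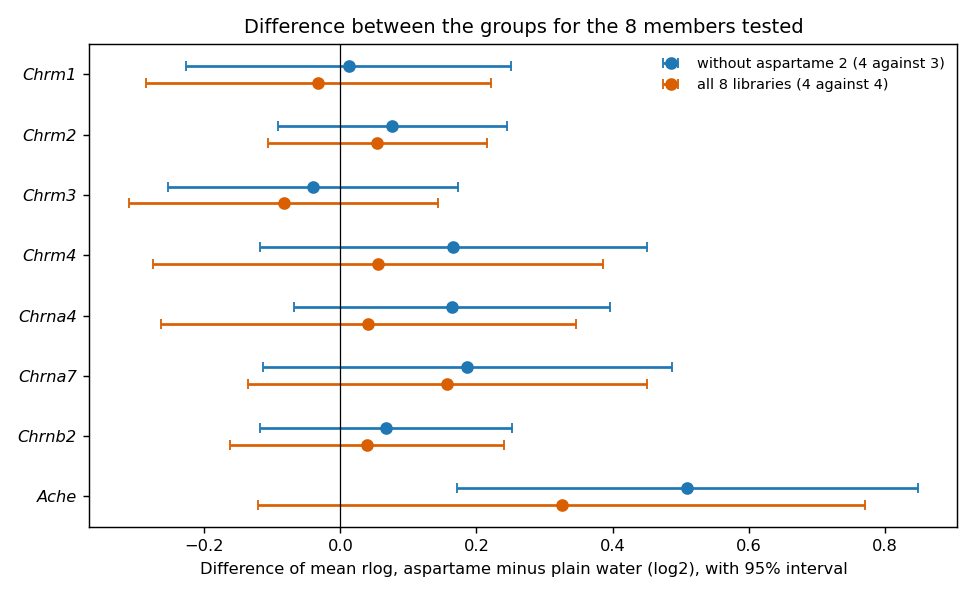
Difference of the group means (aspartame minus plain water, log2) of the 8 genes tested, with 95% intervals from limma, without aspartame 2 in blue and with all 8 libraries in orange. For 7 genes the intervals include 0 in both comparisons, and for *Ache* the interval without aspartame 2 runs from 0.17 to 0.85.

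The aspartame mice differed among themselves in genes of neuron types that carry these receptors. Excitatory projection neuron markers (*Slc17a7*, *Neurod6* and *Tbr1*; 3 of 3 tested, 0 called) deviated on average by −0.35 log2 units from the plain water mean in aspartame 1, by 0.39 in aspartame 3 and by 0.14 in aspartame 4, with plain water libraries from −0.069 to 0.073. The 3 genes did not move together: *Neurod6* was 7.27 in aspartame 1 and 9.26 in aspartame 3 against a plain water mean of 8.02, whereas *Tbr1* was 8.53 in both against 8.75. *Chrm1*, *Chrm3* and *Chrna7* were each lower in aspartame 1 than in aspartame 3 and 4, whereas *Chrm2*, *Chrm4*, *Chrna4* and *Ache* were highest in aspartame 1. In aspartame 2 the mean deviation of the excitatory markers was −0.023. There *Chrm1* (9.12) and *Chrm3* (6.34) were below every plain water mouse, and *Chrna7* (5.30) was within the plain water range. Striatal projection neuron markers (7 of 8 tested, 0 called, none at 0) were on average 0.96 above the plain water mean in aspartame 1 and 0.57 in aspartame 3, with plain water libraries from −0.25 to 0.37. They were at −0.085 in aspartame 4. *Chrm4*, a receptor gene that striatal projection neurons express strongly, was highest in aspartame 1 (6.42), but at 6.05 in aspartame 3 it was below the plain water mean of 6.08, and in aspartame 4 it was 6.27. Markers of other cells were called higher in the comparison of 7 libraries: *Slc32a1* (0.71, adjusted *P* 0.0232 by limma; 1 of 3 GABAergic markers), *Tcf7l2* (0.57, adjusted *P* 0.0104) and *Tnnt1* (0.38, adjusted *P* 0.0458; 2 of 4 thalamic markers), and *Mbp* (0.62, adjusted *P* 0.0398; 1 of 3 oligodendrocyte markers). Each was highest in aspartame 1, and none was called with all 8 libraries (adjusted *P* 0.903 by limma for each), where the groups still did not overlap for *Tcf7l2*. The part of these marker differences in the values of the receptor genes, *Ache* and the chaperone genes was not tested. In bulk tissue, fewer cells of a type and less RNA per cell cannot be told apart.

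The genes that mark cholinergic neurons themselves were low, and aspartame 1 stood above the other mice in them. *Chat*, which encodes the enzyme that makes acetylcholine, was 2.31, 2.49, 2.35 and 2.33 in water 1 to 4 and 3.13, 2.51, 2.73 and 2.43 in aspartame 1 to 4. *Slc5a7*, the gene of the high-affinity choline transporter, was 4.12, 4.46, 4.00 and 4.08 in plain water and 5.31, 4.95, 4.43 and 4.19 in aspartame. Aspartame 1 was highest for both genes, and for *Slc5a7* aspartame 2 came next. The *Slc5a7* difference was 0.48 ± 0.21 (SE, adjusted *P* 0.175 by limma) in the comparison of 7 libraries and 0.56 ± 0.21 (SE, adjusted *P* 0.903 by limma) in that of 8. Without aspartame 1 it was 0.15. *Slc18a3*, which encodes the vesicular acetylcholine transporter and lies within *Chat* on the same strand, was between −0.074 and −0.029 in plain water and 0.20, −0.066, −0.0051 and 0.15 in aspartame 1 to 4. It was below the minimum for a test; without that minimum its difference in the comparison of 7 libraries was 0.18 with an adjusted *P* of 0.0314 by limma, and with all 8 libraries it was 0.13 with an adjusted *P* of 0.635.

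The cholinergic identity genes *Lhx8*, *Isl1* and *Gbx1*, which encode transcription factors, and *Ngfr*, which encodes a neurotrophin receptor, were all below the minimum for a test. Their mean deviation from the plain water mean was 0.55 in aspartame 1 and between 0.055 and 0.14 in the other aspartame mice, with plain water from −0.056 to 0.12. All 4 were highest in aspartame 1. *Ache*, which cholinergic neurons and many other neurons express, was nearly as high in aspartame 4 as in aspartame 1, and the cholinergic genes in aspartame 4 were mixed: *Chat*, *Slc5a7*, *Isl1*, *Gbx1* and *Ngfr* were within the range of plain water, and *Slc18a3* and *Lhx8* were above it. Of the 9 genes for acetylcholine synthesis, packaging, uptake and breakdown, 4 were tested and 0 were called, with 1 (*Slc5a7*) at an unadjusted *P* under 0.05 and a median difference of 0.12, where 8.81% of all genes tested were called and 27.1% had an unadjusted *P* under 0.05. Among them, *Bche*, the gene of butyrylcholinesterase, differed by 0.14 (adjusted *P* 0.564 by limma), *Chka*, a choline kinase gene, by 0.10 (adjusted *P* 0.434) and *Slc44a1*, a choline transporter-like gene, by −0.090 (adjusted *P* 0.636). With all 8 libraries these differences were 0.18, 0.14 and −0.085 (adjusted *P* 0.903, 0.903 and 0.922 by limma).

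**Figure D3:**
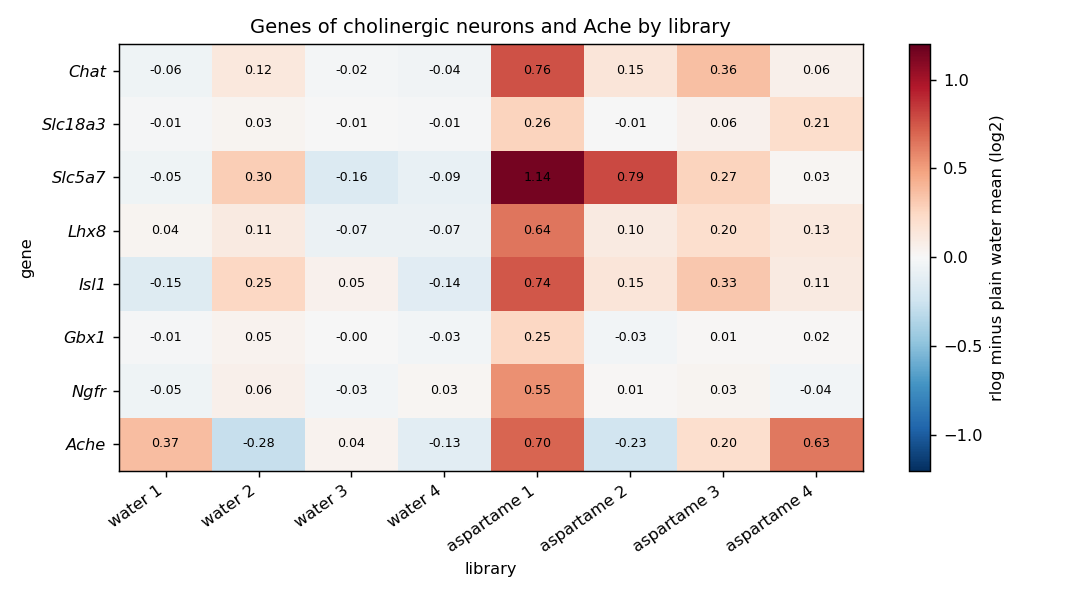
Deviation of each gene from its plain water mean (log2) in the 8 libraries, for genes of cholinergic neurons and for *Ache*. Aspartame 1 has the highest value of every gene, 0.76 for *Chat* and 0.70 for *Ache*, whereas aspartame 4 has 0.63 for *Ache* and 0.06 for *Chat*.

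Nicotinic receptors need chaperones to fold and reach the surface, and the genes of 2 of these fell in the comparison of 7 libraries. *Tmem35a* (chrX:134295225-134305969, plus strand), which encodes NACHO, a chaperone of neuronal nicotinic receptors including α7, was 8.43, 8.42, 8.43 and 8.31 in water 1 to 4 and 8.04, 8.64, 7.67 and 7.85 in aspartame 1 to 4. Aspartame 1, 3 and 4 were below every plain water mouse, and aspartame 2 was above every one. The difference was −0.54 ± 0.092 (SE), 0.686-fold, with an adjusted *P* of 0.0107 by limma. *Ric3* (chr7:109034312-109083331, minus strand), a chaperone gene best known for α7, was 8.68, 8.78, 8.90 and 8.79 in plain water and 8.49, 9.03, 8.53 and 8.49 in aspartame. Again aspartame 1, 3 and 4 were below, and aspartame 2 above, all plain water mice. The *Ric3* difference was −0.28 ± 0.075 (SE), 0.822-fold, with an adjusted *P* of 0.0409 by limma.

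Both calls rest on leaving aspartame 2 out: with all 8 libraries the difference was −0.35 for *Tmem35a* and −0.15 for *Ric3*, each with an adjusted *P* of 0.903 by limma. *Tmem35a* was called without any 1 of the other libraries (adjusted *P* 0.00673 to 0.0479 by limma). The *Ric3* call was lost when water 2, water 3 or water 4 was left out, and likewise aspartame 1 and aspartame 4, where limma gave adjusted *P* values from 0.0821 to 0.143. With the GC content and length trend removed, both were called, at −0.44 (adjusted *P* 0.0335 by limma) and −0.25 (adjusted *P* 0.0492 by limma). Over the 17 alternatives without aspartame 2, *Tmem35a* was called in 17 and *Ric3* in 9. Of the 8 chaperone and modulator genes, 7 were tested, 0 rose and 2 fell, where 6.10% of all genes tested rose and 2.71% fell, and the median difference was −0.17. *Lynx1*, which encodes a membrane-anchored protein that dampens nicotinic receptors, was 9.63, 9.35, 9.45 and 9.50 in plain water and 9.71, 9.04, 10.10 and 9.71 in aspartame. Its groups did not overlap without aspartame 2, and the difference was 0.36 ± 0.11 (SE, adjusted *P* 0.0584 by limma). With all 8 libraries the *Lynx1* groups overlapped and the difference was 0.16 (adjusted *P* 0.916 by limma). With the GC content and length trend removed, the *Lynx1* difference was 0.15 (adjusted *P* 0.514 by limma).

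**Figure D4:**
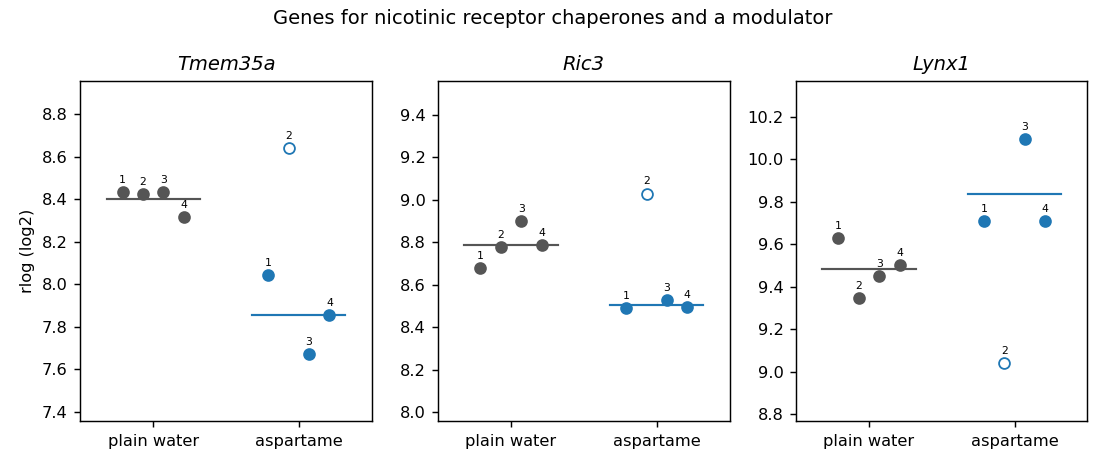
The rlog level (log2) of *Tmem35a*, *Ric3* and *Lynx1* by library, with plain water in grey, aspartame in blue and aspartame 2 as the open circle; lines are group means without aspartame 2. In *Tmem35a* the filled aspartame circles lie between 7.67 and 8.04, below all plain water mice, and aspartame 2 lies at 8.64.

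Downstream of the muscarinic receptors, 13 of 13 genes for G proteins, phospholipases and the potassium channels they act on were tested and 0 were called, with 1 at an unadjusted *P* under 0.05 and a median difference of 0.12, against 8.81% called and 27.1% at an unadjusted *P* under 0.05 among all genes tested. *Gnao1*, the gene of the Go protein α subunit, differed by 0.19 (adjusted *P* 0.125 by limma), and *Gnai2*, a Gi α subunit gene, by 0.21 (adjusted *P* 0.189). *Gna11*, of the Gq family, differed by 0.20 (adjusted *P* 0.193), and *Kcnj6*, a subunit gene of the potassium channels that Gi/o-coupled receptors open, by 0.42 (adjusted *P* 0.196). *Kcnj6* depended on single mice: without aspartame 1 the difference was 0.73 and called (adjusted *P* 0.0150 by limma), and without aspartame 3 it was 0.20 (adjusted *P* 0.471). *Gnai2* was called without aspartame 3 (0.32, adjusted *P* 0.0231 by limma), and *Gna11* turned to −0.028 with the GC content and length trend removed. With all 8 libraries the differences were 0.11 for *Gnao1*, 0.072 for *Gnai2*, 0.032 for *Gna11* and 0.27 for *Kcnj6* (adjusted *P* 0.903 to 0.981 by limma). Of the 12 other nicotinic subunit genes, including those of muscle and ganglia, none reached the minimum for a test. *Chrna9*, *Chrnd* and *Chrng* were constant at 0, and the other 9 had values from −1.33 in *Chrne* to 2.07 in *Chrnb1*.

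The order of the 10 genes in plain water was taken from the level per kb, the rlog minus the log2 of a length in kb. Per kb of the longest coding sequence, *Chrm1* was highest (8.82 ± 0.070, SD, n = 4), and *Chrnb2* followed at 6.75. *Ache* (5.74), *Chrm3* (5.74), *Chrm4* (5.56) and *Chrna4* (5.30) came next, each overlapping its neighbour in the order over the 4 mice. *Chrna7* (4.64) and *Chrm2* (3.33) stood apart from their neighbours, and *Chrm5* (2.33) and *Chrna5* (2.32) overlapped. The coding length was chosen after the values were seen, because the 8 annotated protein-coding transcripts of *Ache* have a median length of 423.5 bases against a longest coding sequence of 1842 bases, and the models of *Chrm4* and *Chrm5* hold little beyond the coding sequence. With the median transcript length, *Ache* came first at 7.86 and *Chrm1* second at 7.23, and *Chrna4* moved from rank 6 to rank 3. *Chrnb2*, at rank 2 by coding length, was at rank 4 with both the median and the longest transcript length. *Chrm4* moved from rank 5 by coding length to rank 2 with the longest transcript length. *Chrm2*, *Chrm5* and *Chrna5* held the lowest 3 ranks with every length.

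**Figure D5:**
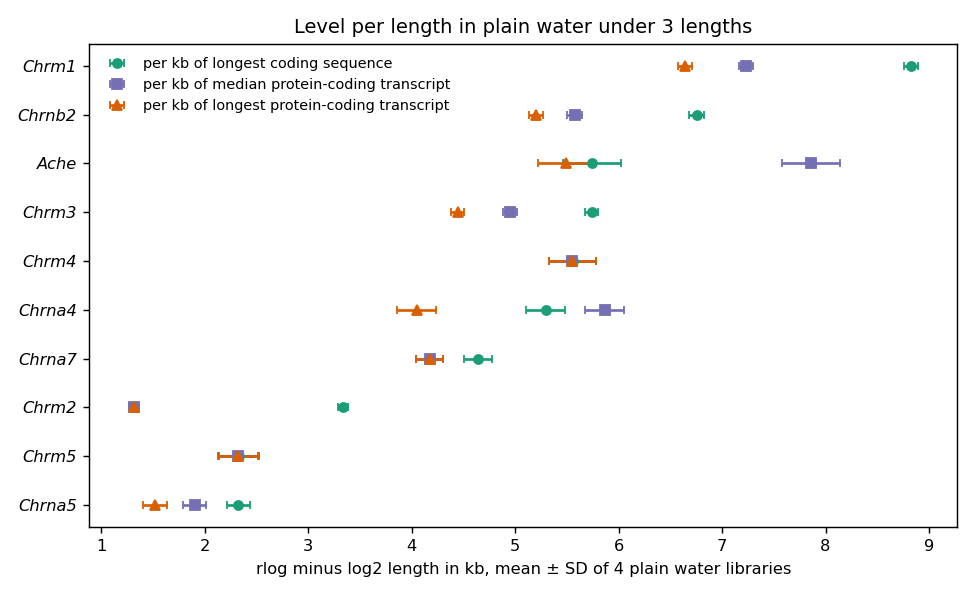
Level per kb in plain water (rlog minus log2 length in kb; mean ± SD of 4 libraries) of the 10 genes under 3 lengths: longest coding sequence (circles), median protein-coding transcript (squares) and longest protein-coding transcript (triangles). *Chrm1* is first or second under each length, and *Ache* moves between 5.49 and 7.86.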

How the data were processed

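Amygdala RNA from 8 mice was sequenced as stranded mRNA libraries, 1 per mouse. Per the methods and the submitters' processing notes, the authors aligned reads with STAR to mm10 (GRCm38), counted them per gene with Salmon and used DESeq2 for normalization and testing (versions not given in the sources used here). The deposited values are on a log2 scale, taken from the name of the table to be rlog values that the authors computed with DESeq2; the rlog options are not given in the sources used here. The table held no counts, so depth and counting error are unknown, and the number of mice limits the precision.

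Genes that varied and had a mean rlog of at least 3 were tested with limma 3.58.1 in R 4.3.3 (linear model, empirical Bayes with a mean-variance trend), since the table held no counts for a count model. Benjamini-Hochberg adjustment of the *P* values covered all genes tested, and genes were called under 0.05. Intervals are unadjusted 95% intervals. Groups come from the sample labels. Of the 24982 genes, 6350 had 1 constant value. Lengths, GC content, coordinates and overlaps come from GENCODE M21 (GRCm38) and promoter windows from RefSeq (GRCm38.p6). Figures were drawn with matplotlib 3.10.9. The fit was tested on simulated data.

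All 10 genes are described. Of the other cholinergic lists, the text names every gene called in the comparison of 7 libraries and otherwise up to 4 genes per list with the smallest *P*, plus *Chat*, *Slc18a3* and *Slc5a7*. The genes most like *Ache* and *Chrna4*, the 2 tested members with the smallest *P*, were the 3 with the highest Pearson r over 8 libraries. Some genes of these lists are not reported here and were left out of the counts. Genes and lists were chosen with earlier results of these data known. Alternatives left out each library, changed the filter, moderation or scaling, added the mouse number as a block or age as a covariate, or removed the trend on GC content and length.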

Additional observations from a re-analysis of the deposited data

Results flagged for a closer look

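In groups of 4 libraries, the lowest and the highest value of a gene were set against Dixon's 95% critical value. The genes covered were the receptor genes, *Ache*, the tested genes named from the other cholinergic lists, *Chat* and *Slc18a3*. Cell type markers, the cholinergic identity genes (*Lhx8*, *Isl1*, *Gbx1* and *Ngfr*) and the remaining genes named were not covered. Of 46 groups, 4 held a library far from the other 3, where chance gives about 1 in 20. *Chrna4* in aspartame 2 was 5.91, with the other aspartame libraries between 6.37 and 6.45. *Ric3* in aspartame 2 was 9.03, with the others between 8.49 and 8.53. *Chrm5* in water 2 was 2.71, with the other plain water libraries between 3.07 and 3.12. *Tmem35a* in water 4 was 8.31, with the others between 8.42 and 8.43.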

How the results depend on the processing

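In the comparison of 7 libraries, the count of the 10 genes called was 0 and ranged from 0 to 1 when any 1 library was left out; the 1 gene was *Ache*, without water 1 and without aspartame 3. It was also 1 (*Ache*, 0.42, adjusted *P* 0.0335 by limma) with the mouse number as a replicate block, which drops water 2, and 0 under every other alternative. In the comparison of 8 libraries it was 0 under all alternatives. The block moved *Ric3* just past the threshold and called *Slc5a7* (adjusted *P* 0.0234) and *Kcnj6* (0.0424). *Ric3* was also lost with age as a covariate (adjusted *P* 0.119 by limma) and with the block and the GC content and length removal together (0.0827). Same-numbered libraries correlated at 0.28, 0.31 and −0.013 for aspartame 1, 3 and 4. Aspartame 1 and 3 correlated best with the water library of their own number, and aspartame 4 with water 1 (0.23). With all 8 libraries only aspartame 1 correlated best with its own number, so the numbers were not taken as pairs.

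Over all genes, 1134 were called in the comparison of 7 libraries. Leaving out 1 library gave 110 to 2082, age as a covariate 222, removal of the GC content and length trend 373, that removal with the block 379, and all 8 libraries 0 (553 at an unadjusted *P* under 0.05). The cause of these shifts was not tested. Across the 17 alternatives of this comparison, *Ache* stayed positive (0.19 to 0.66), whereas the uncalled differences of *Chrm1*, *Chrm3* and *Chrnb2* changed sign in 7, 1 and 2, and those of *Gna11* and *Slc44a1* in 2 each. Age was 188 d in aspartame 1 alone, so that mouse and its age cannot be told apart. Without aspartame 2, an age of 189 d was found only in plain water (water 2 and water 4), so age as a covariate was partly tied to group. With 3 or 4 mice a group, a difference within the intervals given could not be told from none, and without counts the error of reading low genes is unknown.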

Other observations

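Over the 8 libraries, *Pnmal2* (Pearson r 0.990, Spearman rho 0.976), *Kank3* (0.982 and 0.976) and *Map3k13* (0.979 and 1.00) had the pattern most like that of *Ache* among 12860 genes compared. With aspartame 1 and 4, the libraries farthest from the median of *Ache*, left out, r was 0.973, 0.984 and 0.964. For *Chrna4* these genes were *Grhpr* (r 0.975, rho 0.929), *BC005624* (0.965 and 0.976) and *Sh2d3c* (0.961 and 0.619), with r of 0.949, 0.900 and 0.875 without aspartame 2 and water 2. The genes were picked as the highest of all those compared and share libraries with *Ache* and *Chrna4*, so no *P* is given. The differences of *Pnmal2*, *Kank3* and *Map3k13* in the comparison of 7 libraries were 0.32, 0.27 and 0.11, with adjusted *P* values by limma of 0.0884, 0.133 and 0.411.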
